A study of Mus musculus with 6 samples.

Results

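The 43 genes described here encode lysosomal hydrolases, lysosomal membrane proteins and 2 proteins that act on the lysosome as a whole. They are a list of gene names, and no measured value enters the rule that picks them, though the list was drawn up with earlier results of these data known. All 43 were measured, among 18193 genes with a probe set annotated to a single gene symbol, and they comprise 13 proteases, 14 glycosidases and sulfatases, 7 genes of lipid handling, 7 membrane proteins and 2 regulators. Mesenchymal stem cells of groin fat (AD-MSCs, adipose derived) came from C57BL/6 mice and were sorted by flow cytometry into a CD73+ and a CD73- subgroup and cultured in low sugar DMEM with 10% FBS. No other treatment is given. Total RNA of the sorted cells at passage 5 was hybridised to 6 Affymetrix arrays, 3 for each subgroup. CD73, an ecto-5'-nucleotidase encoded by Nt5e, is the surface protein that defines the sort, and the study compared the subgroups for repair of the infarcted heart. Nothing in the labels tells if replicate arrays stem from separate mice or cultures. The p-values therefore rest on a spread among arrays that may be technical.

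The lysosome is the acidic organelle in which cells digest proteins, sugars, lipids and whole organelles. Its hydrolases are made in the endoplasmic reticulum, tagged with mannose 6-phosphate and carried to the lysosome, while the V-ATPase pumps protons across its membrane and heavily glycosylated proteins such as LAMP1 and LAMP2 line that membrane from within. The transcription factor TFEB and its relatives of the MiT/TFE family bind a short palindrome in the promoters of many lysosomal genes, and mTORC1 on the lysosomal surface keeps TFEB out of the nucleus when nutrients are plentiful. In stromal cells, lysosomal proteases such as cathepsins B, K and L also degrade collagen that has been taken up or lies outside the cell.

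Values are log2 signals, and a difference is the CD73+ mean minus the CD73- mean of 3 arrays each. Each gene was read from its brightest probe set. A gene passed when its limma p-value, adjusted by the Benjamini-Hochberg method over 45037 probe sets, was under 0.05. Nt5e itself read 7.84, 7.60 and 7.74 on the CD73+ arrays against 7.29, 6.39 and 6.84 on the CD73- arrays, a difference of 0.88 (SE 0.20, adjusted p = 0.0218, limma). The 3 CD73+ arrays all read above the CD73- arrays on that probe set. The call did not hold without CD73- replicate 3 (adjusted p = 0.0569), CD73+ replicate 1 (0.0763) or CD73+ replicate 3 (0.0563), with differences of 0.66 to 1.11 over the fits that leave out an array, and 2 dimmer probe sets of Nt5e did not pass. The correlation between arrays was 0.9967 to 0.9982 within a subgroup and 0.9926 to 0.9934 between subgroups. Of 11 stromal markers measured, 7 were higher in CD73+ cells and 0 lower, among them decorin (Dcn, 1.24) and the collagen chain Col1a1 (0.85). The shares over all genes were 10.1% higher and 12.6% lower.

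Most lysosomal genes that passed were hydrolases and activators that were higher in CD73+ cells. Of the 43 genes, 14 were higher in CD73+ AD-MSCs, 2 were lower and 27 did not pass. Over all genes 10.1% were higher and 12.6% lower, so the share of these genes that were higher, 32.6%, was above that background. These genes were also bright, with a median level of 9.08 against array medians of 5.28 to 5.37 over all probe sets. The share among genes of like level was not computed. The median difference of the 43 genes was 0.07, against -0.02 over all genes, and single genes ranged from -0.74 to 0.88. Values of the subgroups did not overlap for 19 genes with the CD73+ arrays above and for 8 with them below, where 18.1% and 22.7% of all genes showed such a separation. By role, 5 of 13 proteases, 6 of 14 glycosidases and sulfatases and 3 of 7 genes of lipid handling were higher, while 0 of 7 membrane proteins were. With so few membrane proteins, 0 is close to the 10.1% of all genes, and on other probe sets of theirs 3 were higher. These directions hold on the deposited scale, on which the distributions of the arrays were made nearly alike. The 12 poly-A spike control probe sets, which read spiked-in RNA, were lower on the CD73+ arrays by 0.85 to 1.06, and after scaling to them 42 of the 43 genes were higher in CD73+ cells. How much of these controls was added to each sample is not given in the sources used here, so their shift cannot be assigned to the RNA of the cells or to the controls. A difference below therefore says how a gene stood relative to the bulk of transcripts.

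**Figure D1:**
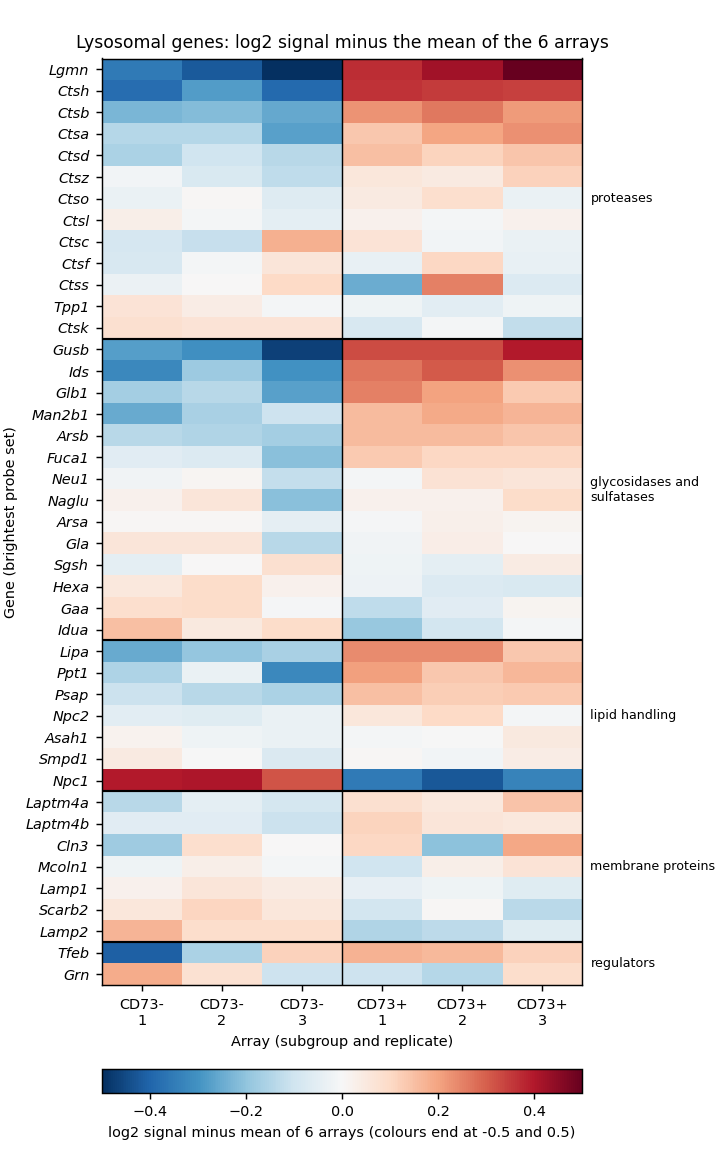
Each row is 1 of the 43 lysosomal genes and each column 1 array, CD73- on the left and CD73+ on the right, coloured by the log2 signal minus that gene's mean over the 6 arrays, with rows grouped by role and ordered by difference. The upper rows of the proteases, of the glycosidases and sulfatases and of lipid handling are blue on all 3 CD73- arrays and red on all 3 CD73+ arrays, Npc1 is the reverse, and Tfeb varies among the CD73- arrays from 6.02 to 6.54.

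Promoter sequence is shown for 6 of the genes, because the palindrome bound by TFEB can be read directly in it. The motifs searched were TCACGTGA, the strict form, and CACGTG, the shorter E-box that it contains. Both are palindromic and read the same on either strand. Windows of 250 bases before and 50 bases after annotated starts (RefSeq, GRCm38.p6) were given for 38 of the 43 genes, and not for Ctsb, Ctsh, Npc1, Asah1 and Laptm4b. TCACGTGA lay in a window of 5 of the 38 genes (13.2%), against 1.7% of 13272 measured genes with a window and 1.41% of all 17491 coding genes. CACGTG lay in a window of 14 of the 38 (36.8%), against 10.5% of measured genes and 8.91% of all coding genes. Over all 21262 windows of this length, 1.23% held the strict form and 7.84% the shorter one. Printed below, 5' to 3' on the strand of the gene, are 130 bases before and 20 after the start for 4 genes that were higher in CD73+ cells (Lgmn, Ctsa, Ctsd, Glb1) and for 2 genes of the lysosomal membrane that did not pass (Lamp1, Mcoln1), chosen with their values known. All 6 stretches hold a motif, and these 4 are the only ones of the 12 higher genes with a window that held CACGTG. For Lgmn and Ctsa the window of the other annotated start held none. The 6 are therefore not typical of the 38 genes. Capitals mark TCACGTGA where it is whole and CACGTG elsewhere.
Lgmn (chr12:102439073-102439222, minus strand, at the second of 2 annotated starts): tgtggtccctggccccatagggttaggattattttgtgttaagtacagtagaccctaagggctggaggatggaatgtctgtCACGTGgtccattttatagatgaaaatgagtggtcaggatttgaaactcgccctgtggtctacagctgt
Ctsa (chr2:164833643-164833792, plus strand, at the second of 2 annotated starts): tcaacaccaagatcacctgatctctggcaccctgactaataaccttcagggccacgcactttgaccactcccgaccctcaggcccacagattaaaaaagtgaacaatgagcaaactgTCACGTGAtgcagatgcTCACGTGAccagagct
Ctsd (chr7:142387808-142387957, minus strand): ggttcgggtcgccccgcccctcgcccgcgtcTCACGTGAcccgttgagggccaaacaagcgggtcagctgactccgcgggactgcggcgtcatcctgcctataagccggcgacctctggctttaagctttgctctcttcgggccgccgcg
Glb1 (chr9:114400948-114401097, plus strand): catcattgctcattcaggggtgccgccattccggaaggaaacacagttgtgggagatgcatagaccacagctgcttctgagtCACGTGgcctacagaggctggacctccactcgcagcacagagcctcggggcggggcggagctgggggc
Lamp1 (chr8:13159031-13159180, plus strand): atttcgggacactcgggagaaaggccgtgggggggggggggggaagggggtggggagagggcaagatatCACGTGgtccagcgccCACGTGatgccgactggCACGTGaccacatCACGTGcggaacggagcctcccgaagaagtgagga
Mcoln1 (chr8:3500389-3500538, plus strand): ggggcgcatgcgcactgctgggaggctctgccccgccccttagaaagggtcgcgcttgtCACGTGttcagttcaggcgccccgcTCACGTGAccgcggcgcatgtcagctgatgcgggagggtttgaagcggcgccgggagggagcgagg
The stretch of Lamp1 held 4 copies of the shorter motif and that of Mcoln1 held 1 of each form, while Lgmn and Glb1 held 1 copy of the shorter form. Set beside the differences between subgroups, CACGTG lay in a window of 4 of 12 genes that were higher (33.3%) and of 10 of 25 that did not pass (40%), and TCACGTGA in 2 of 12 (16.7%) and 3 of 25 (12%). By role, the shorter motif was found for 5 of 11 proteases, 6 of 14 glycosidases and sulfatases, 3 of 6 membrane proteins and 0 of 5 genes of lipid handling. A match describes these letters and is not a measured binding site.

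Among the proteases, 5 of 13 were higher in CD73+ cells and 0 lower, led by legumain and cathepsin H. Legumain (Lgmn), an endopeptidase that cuts after asparagine and matures several cathepsins, showed the largest difference of the 43 genes. Lgmn read 9.04, 9.09 and 9.20 on the CD73+ arrays and 8.32, 8.25 and 8.13 on the CD73- arrays. The subgroups lay far apart relative to their spread, with a difference of 0.88 (95% interval 0.70 to 1.05, 1.84-fold, adjusted p = 0.000413, limma). Ctsh, an aminopeptidase of the papain family, read 8.70, 8.69 and 8.68 in CD73+ cells and 7.96, 8.06 and 7.95 in CD73- cells. Its difference was 0.69 (95% interval 0.56 to 0.83, adjusted p = 0.000367, limma), and a second probe set gave 0.57 and also passed.

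Ctsb, a cysteine protease with both endopeptidase and carboxypeptidase activity, read 12.03, 12.07 and 12.02 on the CD73+ arrays and 11.58, 11.59 and 11.55 on the CD73- arrays. It was higher by 0.47 (95% interval 0.35 to 0.59, adjusted p = 0.00114, limma). Of the 4 dimmer probe sets of Ctsb, 3 passed with differences of 0.58, 0.77 and 0.68, and the dimmest gave 0.27 (adjusted p = 0.0911). Ctsd, the aspartic protease used most often as a marker of the lysosomal lumen, read 11.75, 11.71 and 11.74 against 11.44, 11.50 and 11.46. Its 0.26 was a smaller difference (95% interval 0.14 to 0.39, adjusted p = 0.0129, limma), and the adjusted p was 0.0592 without CD73+ replicate 1. Ctsa, the protective protein that stabilises beta-galactosidase and neuraminidase, was higher by 0.37 (adjusted p = 0.00622). Its dimmer probe set gave 0.16 and did not pass (adjusted p = 0.29, limma).

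The other 8 proteases did not pass. Cathepsin L (Ctsl), a broad endopeptidase, read 12.80, 12.77 and 12.80 on the CD73+ arrays and 12.81, 12.77 and 12.73 on the CD73- arrays. These values overlap, and the 95% interval of the difference ran from -0.10 to 0.15, so that a difference of the size seen for Ctsb lies outside it. A second, much dimmer probe set of Ctsl gave 0.27 (adjusted p = 0.0175), with an adjusted p up to 0.0728 when 1 array was left out. Ctsk, the collagen-degrading cathepsin of osteoclasts and fibroblasts, was at -0.14 and Ctsz, a carboxypeptidase, at 0.14, each without overlap but short of the threshold (adjusted p = 0.125 and 0.149). Ctso (0.07), Ctsf (0.02) and Tpp1 (-0.06), a tripeptidyl peptidase, lay within 0.07 of 0. Ctss and Ctsc, cathepsins known best from immune cells, read 3.60 or less on average in both subgroups, below 3.86, the 0.25 quantile of all values on the arrays.

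Glycosidases and sulfatases strip sugars and sulfate from glycoproteins, glycolipids and glycosaminoglycans, and 6 of 14 were higher in CD73+ cells with 0 lower. The 3 largest differences were those of Gusb, Ids and Glb1. Gusb, beta-glucuronidase, read 8.43, 8.43 and 8.50 on the CD73+ arrays and 7.83, 7.80 and 7.64 on the CD73- arrays. The subgroups did not overlap, with a difference of 0.70 (95% interval 0.54 to 0.86, 1.62-fold, adjusted p = 0.000719, limma), and the second probe set gave 0.78. Glb1, the beta-galactosidase whose activity is read in the stain for senescent cells, was at 8.53, 8.48 and 8.41 in CD73+ cells and at 8.11, 8.14 and 8.01 in CD73- cells. It was higher by 0.39 (95% interval 0.24 to 0.54, adjusted p = 0.00526, limma) on its only probe set.

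Ids, iduronate-2-sulfatase, acts at the first step in the breakdown of heparan and dermatan sulfate. On its brightest probe set it read 9.41, 9.45 and 9.37 in CD73+ cells against 8.82, 8.96 and 8.84 in CD73- cells, a difference of 0.54 (95% interval 0.39 to 0.68, adjusted p = 0.00143, limma). The 5 dimmer probe sets lay between -0.14 and 0.14 and none passed, and their mean with the brightest was 0.06 (adjusted p = 0.464), so the call rests on a single probe set. Man2b1, lysosomal alpha-mannosidase (0.34), Arsb, a sulfatase of dermatan sulfate (0.31), and Fuca1, alpha-fucosidase (0.22), were also higher. Dimmer probe sets of Man2b1 (-0.06) and Arsb (-0.03 and 0.09) did not pass, and of the 3 of Fuca1 one passed (0.25, adjusted p = 0.0469). With the mean of a gene's probe sets, adjusted over genes, the count of 6 became 2, Gusb and Glb1. Idua was then lower (-0.17, adjusted p = 0.0483, limma). The call for Fuca1 was at the threshold (adjusted p = 0.0487) and ended whichever array was left out, with adjusted p from 0.072 to 0.153.

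The remaining 8 glycosidases and sulfatases did not pass and lay between -0.19 and 0.09. Idua, alpha-iduronidase, acts directly after Ids on the same chains and read 7.34, 7.44 and 7.52 in CD73+ cells against 7.68, 7.58 and 7.62 in CD73- cells. Its values did not overlap, but the difference of -0.19 did not pass (adjusted p = 0.0947). Hexa (-0.11), which acts on gangliosides, and Gaa (-0.11), acid alpha-glucosidase, leaned the same way on their brightest probe sets. A dimmer probe set of Gaa gave 0.007 (adjusted p = 0.956, limma). Gla, Arsa, Sgsh, Naglu and Neu1 were within 0.09 of 0.

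**Figure D2:**
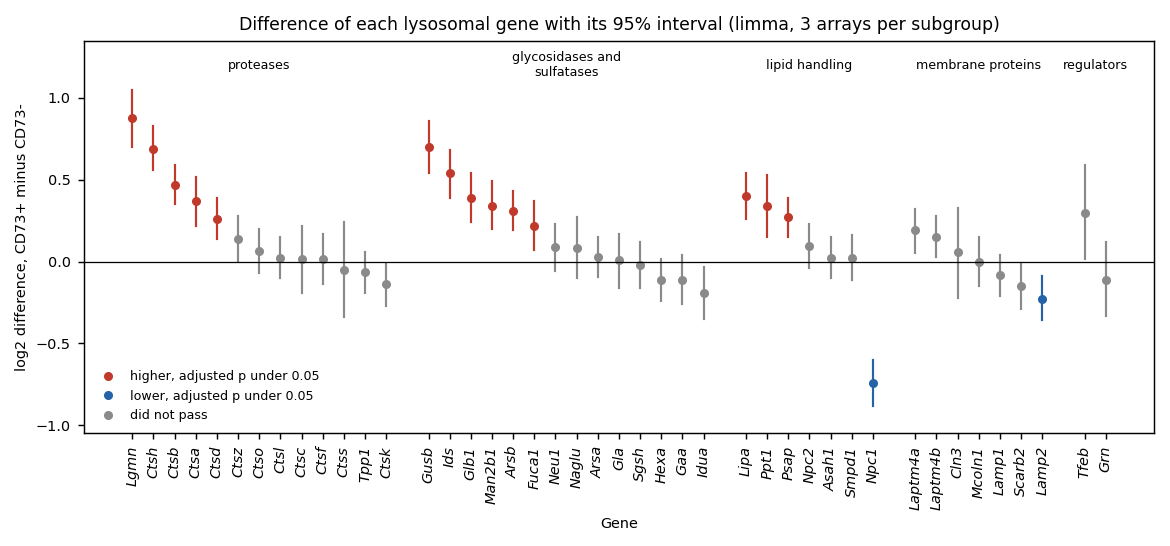
Points are the log2 difference (CD73+ minus CD73-) of each gene with its 95% interval from limma, by role, red for genes higher and blue for genes lower by the test, grey for the rest. Red points fill the left of the proteases, of the glycosidases and sulfatases and of lipid handling. Npc1 stands alone at -0.74 and the 7 membrane proteins lie within -0.23 and 0.19. Both blue points turn positive under scaling to the poly-A controls.

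Lipid handling held 3 genes that were higher and the largest fall of the 43 genes. Lipa, the acid lipase that frees cholesterol and fatty acids from lipoprotein lipids, read 8.27, 8.27 and 8.17 on the CD73+ arrays and 7.78, 7.84 and 7.87 on the CD73- arrays. It was higher by 0.40 (95% interval 0.26 to 0.54, 1.32-fold, adjusted p = 0.00365, limma). Npc1, the membrane transporter that moves this cholesterol out of the lysosome, went the other way, with 8.20, 8.13 and 8.22 in CD73+ cells and 8.95, 8.96 and 8.87 in CD73- cells. Npc1 was 1.67-fold lower (difference -0.74, 95% interval -0.88 to -0.60, adjusted p = 0.00034, limma) on its only probe set, and it passed whichever array was left out. Scaled to the poly-A controls its difference was 0.19 (adjusted p = 0.0519, limma), the lowest of the 43 genes on that scale too. Npc2, the soluble protein that hands cholesterol to NPC1, did not pass (0.09, adjusted p = 0.331).

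Psap is the precursor of the saposins, which lift sphingolipids to their hydrolases. Psap read 12.43, 12.40 and 12.41 in CD73+ cells and 12.17, 12.14 and 12.12 in CD73- cells, higher by 0.27 (95% interval 0.15 to 0.39, adjusted p = 0.0108, limma). A second probe set gave 0.39 and passed, and on the brightest the adjusted p was 0.0525 without CD73+ replicate 1. Ppt1, which removes palmitate from proteins, read 8.65, 8.58 and 8.61 against 8.29, 8.41 and 8.12. The CD73- arrays were the more spread, and the difference of 0.34 (adjusted p = 0.0254, limma) did not pass without CD73- replicate 1 or without any 1 of the CD73+ replicates (adjusted p 0.0593 to 0.0913). No dimmer probe set of Ppt1 passed (0.00 to 0.24), and their mean with the brightest was 0.19 (adjusted p = 0.0555, limma). Without CD73+ replicate 1 only 1 gene of lipid handling was higher. Asah1, acid ceramidase, and Smpd1, acid sphingomyelinase, were each at 0.02 and did not pass.

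None of the 7 membrane proteins was higher on its brightest probe set, and 1 was lower. With the mean of a gene's probe sets, adjusted over genes, 2 were higher, Scarb2 and Laptm4a, and 0 lower. Laptm4a has a single probe set, so its 0.19 was unchanged and only the fit and its adjustment differed (adjusted p = 0.0294, limma). An equal-variance t-test gave 2 higher, Laptm4a and Laptm4b. Their median difference was 0.00. Lamp1, the most used marker of the lysosomal membrane, read 12.24, 12.26 and 12.22 on the CD73+ arrays and 12.30, 12.34 and 12.32 on the CD73- arrays. These values did not overlap, yet the difference of -0.08 did not pass (95% interval -0.21 to 0.04, adjusted p = 0.351). Lamp2, its paralogue and the receptor of chaperone-mediated autophagy, read 11.69, 11.71 and 11.78 in CD73+ cells and 12.01, 11.93 and 11.93 in CD73- cells. It was lower by that probe set (difference -0.23, 95% interval -0.36 to -0.09, adjusted p = 0.0337, limma). Among the fits that leave out an array, the call held only without CD73+ replicate 3 and ended in the others, with adjusted p from 0.0512 to 0.125.

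Other probe sets of Lamp2 did not bear the same direction. One read 11.65, 11.68 and 11.62 in CD73+ cells and 11.45, 11.41 and 11.50 in CD73- cells, higher by 0.19 (adjusted p = 0.0468, limma), a call that ended whichever array was left out. The other two did not pass (0.06 and -0.17), and the 4 probe sets averaged -0.04. Lamp2 transcripts are known to end in alternative exons. Which transcripts each probe set reads is not given in the sources used here.

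Scarb2, an abundant protein of the lysosomal membrane also called LIMP-2, likewise differed between probe sets. Its brightest gave -0.15 and did not pass (adjusted p = 0.149), while the second read 9.54, 9.55 and 9.52 in CD73+ cells against 9.09, 9.06 and 8.95 in CD73- cells, a difference of 0.50 (adjusted p = 0.00143, limma) that passed whichever array was left out. Laptm4b was at 0.15 (adjusted p = 0.0993) on a probe set that may bind related transcripts, and a dimmer probe set of it gave 0.24 (adjusted p = 0.0175), with adjusted p up to 0.073 when 1 array was left out. Laptm4a read 12.63, 12.60 and 12.69 against 12.41, 12.50 and 12.46, above without overlap, but its 0.19 did not pass (adjusted p = 0.0615). Mcoln1, a calcium channel of the lysosome, was at 0.00 with an interval of -0.15 to 0.15. Cln3 averaged below 3.86 in both subgroups.

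**Figure D3:**
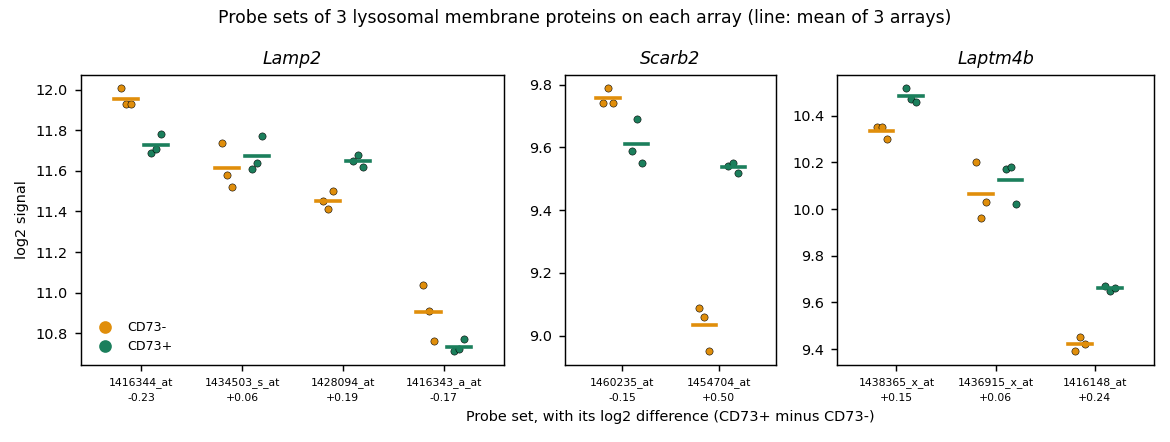
Dots are the log2 signal of each array on every probe set of Lamp2, Scarb2 and Laptm4b, orange for CD73- and green for CD73+, with a line at the mean of 3 arrays and the difference under each probe set. The 4 probe sets of Lamp2 split in direction between -0.23 and 0.19, and the second of Scarb2 separates the subgroups by 0.50 where the first gives -0.15.

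Over all 98 probe sets of the 43 genes, 26 were higher in CD73+ cells and 2 lower, where 9.79% and 9.11% of all 45037 probe sets were. The brightest probe sets of Mcoln1 and Lipa, and of Laptm4b, Gaa and Grn, are of the platform's types that may also bind related transcripts. For 13 genes a single probe set was given, and 4 of these passed (Ctsd, Lgmn, Glb1 and Npc1). Of the 30 genes with several, Ctsh, Gusb and Psap passed in one direction on each of theirs, and 9 passed on the brightest but not on every other. Ctsl, Scarb2 and Laptm4b passed on a dimmer probe set alone, and Lamp2 was the one gene that passed in opposite directions. Of the 98, 10 averaged below 3.86 and 0 of those passed.

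Neither regulator passed. Tfeb read 6.60, 6.59 and 6.54 on the CD73+ arrays and 6.02, 6.27 and 6.54 on the CD73- arrays. The CD73- values were widely spread and one of them lay at the lowest CD73+ value, and the difference of 0.30 did not pass (95% interval 0.02 to 0.59, adjusted p = 0.145). Without CD73- replicate 3 it was 0.43 and passed (adjusted p = 0.0211, limma). Grn encodes progranulin, a secreted protein that is also cut into granulins in the lysosome. It read 11.54, 11.50 and 11.73 in CD73+ cells and 11.83, 11.72 and 11.54 in CD73- cells, which overlap (difference -0.11, 95% interval -0.33 to 0.12, adjusted p = 0.533). Dimmer probe sets of Grn did not share this sign. One gave 0.01, and the other 0.12 without overlap, which did not pass (adjusted p = 0.167, limma). On the latter the CD73+ arrays read 11.06, 11.04 and 11.05 and the CD73- arrays 10.93, 10.94 and 10.93.

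Other genes of the pathway, in lists compiled by hand from general knowledge with earlier results of these data known, were set beside the 43. Further hydrolases and their activators went the same way as the first group, with 7 of 20 higher, 2 lower and a median difference of 0.16. Over all genes 10.1% were higher and 12.6% lower, so falls were no more frequent in this list than among all genes. Pla2g15, a lysosomal phospholipase, was higher by 0.60 (adjusted p = 0.000942) and Galc, which cleaves galactosylceramide, by 0.50 (adjusted p = 0.00262, limma). Dpp7, a dipeptidyl peptidase, was at -0.31 (adjusted p = 0.0151) and Hgsnat, an acetyltransferase of heparan sulfate breakdown, at -0.22 (adjusted p = 0.0322). Of these 2 falls, Dpp7 did not pass in 1 of the 6 fits that leave out an array and Hgsnat in 5 of 6. Poly-A scaling ended both falls and put all 20 genes higher in CD73+ cells.

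The machinery that acidifies the lysosome stood the other way on the deposited scale. Of 18 V-ATPase subunits and accessory proteins, 10 were lower in CD73+ cells and 1 was higher, with a median difference of -0.23. Of all genes, 12.6% were lower and 10.1% higher. These 18 genes were bright, with a median level of 10.69 against array medians of 5.28 to 5.37 over all probe sets. Median levels of the other lists ran from 6.64 to 10.47, and shares among genes of like level were not computed. Atp6v1h, a regulatory subunit of the cytosolic sector, read 11.02, 11.02 and 10.99 in CD73+ cells against 11.55, 11.57 and 11.54 in CD73- cells, lower by a difference of -0.54 (adjusted p = 0.000639, limma). Atp6v0b, of the proton-conducting ring, was at -0.53 (adjusted p = 0.00352). The accessory protein Atp6ap1 was higher by 0.25 (adjusted p = 0.0168) and passed in 3 of the 6 fits that leave out an array. The count of 10 was 5 without CD73- replicate 1 or CD73+ replicate 2 and 4 without CD73- replicate 2 or CD73+ replicate 1. Scaled to the poly-A controls, all 18 were higher, with the smallest median of the 7 lists, 0.69, against 0.99 for the 43 genes.

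Falls were also the more frequent calls among the lysosomal mTORC1 platform and autophagy. Of 18 genes of the MiT/TFE factors and the mTORC1 platform, 7 were lower and 1 higher, where 12.6% and 10.1% of all genes were. Fnip1, a folliculin partner, was at -0.54 (adjusted p = 0.00385) and Rragd, a Rag GTPase, at -0.47 (adjusted p = 0.00211), while Lamtor4 of the Ragulator complex was higher by 0.26 (adjusted p = 0.0248) but passed in 1 of the 6 fits that leave out an array. Of 23 autophagy genes, 10 were lower and 1 higher, to be set beside the same 12.6% and 10.1%. Wipi2, which binds the lipid of forming autophagosomes, was at -0.68 (adjusted p = 0.000514), and Rb1cc1, a scaffold of the ULK1 kinase complex, was at -0.56 (adjusted p = 0.0138) and passed in 4 of those 6 fits. Wipi1 was higher by 0.22 (adjusted p = 0.0494) and passed in 1 of them. The count of 7 was 4 without CD73- replicate 1 and also without replicate 1 or 2 of CD73+, and the count of 10 was 5 without CD73- replicate 1 or 2 and 6 without any CD73+ replicate. Every gene of both lists was higher under poly-A scaling.

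Among genes of sorting to the lysosome, calls were falls. Of 23 sorting genes 0 were higher and 5 lower, among them Gga3, a coat adaptor for mannose 6-phosphate receptors (-0.37, adjusted p = 0.00601), and Gnptg, a subunit of the enzyme that adds the mannose 6-phosphate tag (-0.33, adjusted p = 0.0342, passing in 1 of the 6 fits). Of all genes, 12.6% were lower and 10.1% higher. The count of 5 was 3 without CD73- replicate 2 or CD73+ replicate 1, a share near that of all genes. Of 21 other membrane proteins 3 were higher (14.3%, against 10.1% of all genes) and 6 lower, where 12.6% of all genes were lower. The channels Tpcn2 (0.47, adjusted p = 0.00635) and Tpcn1 (0.38, adjusted p = 0.00928) were higher, and the amino acid sensor Slc38a9 (-0.58, adjusted p = 0.0149) and the cobalamin exporter Lmbrd1 (-0.52, adjusted p = 0.000716) were lower. As with the V-ATPase, these falls reversed under poly-A scaling. Of 6 cathepsin inhibitors, 3 were higher and 1 lower, where 10.1% and 12.6% of all genes were. Cystatin C (Cst3) was higher by 0.33 (adjusted p = 0.00986) and cystatin B (Cstb) was at -0.32 (adjusted p = 0.0113) before poly-A scaling, which turned it. Ctla2a was higher by 0.39 (adjusted p = 0.00589), though its probe sets may also read its near-identical neighbour Ctla2b.

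**Figure D4:**
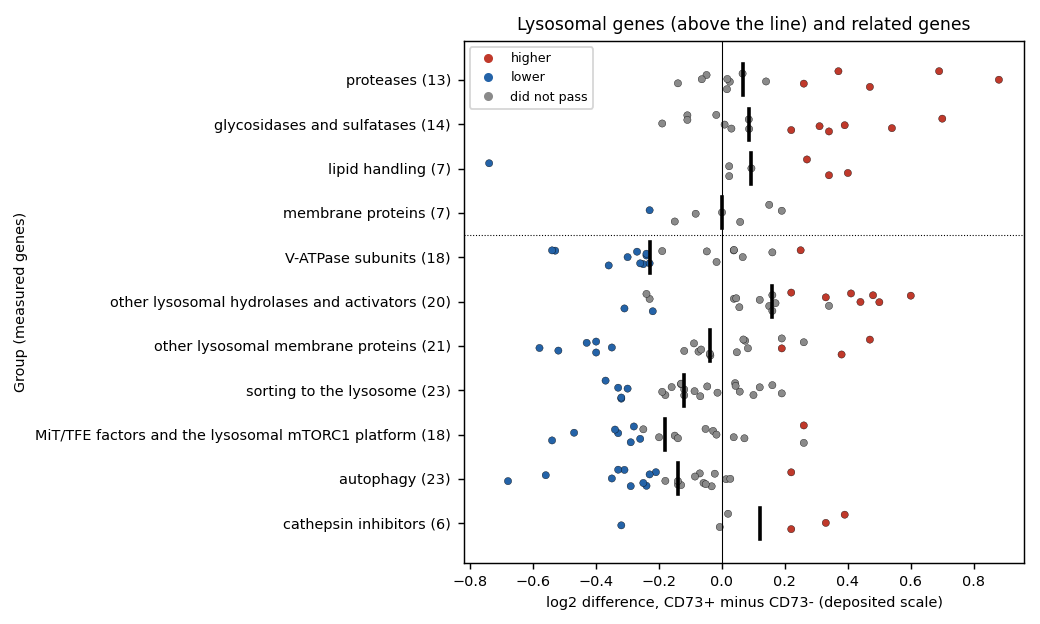
Each dot is the log2 difference of 1 gene on the deposited scale, red where higher, blue where lower and grey where it did not pass, a black bar marking each group's median and the number of genes measured in brackets. Proteases, glycosidases and sulfatases, and further hydrolases reach furthest to the right, with 7 of 20 further hydrolases higher. V-ATPase subunits (median -0.23) and autophagy genes (median -0.14) lie mostly left of 0. All blue points of these lists turn positive under scaling to the poly-A controls.

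Macrophages are rich in many of these hydrolases, so their markers were read on the same arrays. Of 15 macrophage markers 1 was higher and 0 lower, with mean levels from 2.65 to 6.63, where 10.1% and 12.6% of all genes were higher and lower. By sign, 7 of the 15 leaned higher in CD73+ cells and 8 lower. Ptprc, which encodes CD45, was at 3.06 in CD73+ and 3.19 in CD73- cells, below 3.86. Csf1r was higher (0.49, adjusted p = 0.00777, limma), while Lyz2 (5.49 and 5.36) and Cd68 (5.70 and 5.51), itself a lysosomal membrane protein, did not pass. Fcer1g and Spi1 were each at -0.29 without overlap and did not pass either. Of 7 endothelial markers and 6 adipocyte markers 0 passed, with levels up to 6.14. In RNA from a whole culture, fewer cells of a type and less RNA per cell cannot be told apart. The part of other cell types, and of the stromal markers that were higher, in the differences above was not tested.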

How the data were processed

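Gene expression was measured in 3 CD73+ and 3 CD73- AD-MSC samples on Affymetrix arrays. The deposited table holds log2 values of 45101 probe sets, which the authors made with RMA per the submitters' processing notes; its version is not given in the sources used here. RMA makes the arrays' distributions nearly alike and tends to compress ratios.

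Without the 64 control probe sets, 45037 entered a fit (R 4.3.3, limma 3.58.1, lmFit and eBayes, no replicate block, no filter), with Benjamini-Hochberg adjustment over all and a threshold of 0.05. A gene was read from its brightest probe set among 34945 with 1 symbol. Tables and figures were made with Python 3.11.15 and matplotlib 3.10.9. The fit was run on simulated data with independent noise around each probe set's mean. That checks the code only, since shared cultures and the shift of the poly-A controls were not simulated. The number of arrays limits the precision, with a median SD among replicate arrays of 0.0877 (log2).

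The 43 genes and all lists were chosen with earlier results of these data known. Values on every array are given for up to 3 genes per role that passed with the largest rise and fall (or the 2 of smallest p, had none passed), for Tfeb, Grn, Ctsb, Ctsd, Ctsl and Lamp1, and for genes whose probe sets passed in opposite directions. Values on every array of Nt5e, Idua, Laptm4a, Scarb2 and Atp6v1h were added after they were seen. From each other list up to 2 rises and 2 falls are named. Alternatives were a replicate block, median centring, quantile normalization, scaling to poly-A controls, eBayes with a trend and a filter at the median level. Further ones were an equal-variance t-test, the mean of a gene's probe sets and leaving out each array. The fit on that mean was adjusted over genes instead of probe sets. Promoter windows came from RefSeq (GRCm38.p6). Listed genes without a probe set of 1 symbol are not reported here. Scanner files were not used here.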

Additional observations from a re-analysis of the deposited data

How the results depend on the processing

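Among the 16 genes named by rule, poly-A scaling reversed Lamp1 (0.84), Lamp2 (0.70), Npc1 (0.19) and Grn (0.82). Differences near 0 that did not pass also turned in sign for Ctsl under median centring (-0.0076) and for Grn with the mean of its probe sets (0.0084). Poly-A scaling adds 0.93 to every difference by construction. It made 42 of the 43 genes higher instead of 14 and 0 lower instead of 2, with 13 proteases, 14 glycosidases and sulfatases, 6 genes of lipid handling (0 lower) and 7 membrane proteins (0 lower) higher. Of the other lists it made all 18 V-ATPase, 20 hydrolase, 21 membrane, 23 sorting, 18 MiT/TFE and mTORC1, 23 autophagy and 6 inhibitor genes higher and 0 lower.

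Deviations of same-numbered arrays from their subgroup means correlated at r = -0.138, 0.0276 and -0.136, and those of other pairs at -0.0631 to 0.171. With 3 arrays per subgroup these values cannot tell whether same-numbered arrays share a mouse, sort or culture. With the replicate block, 1 of the 43 genes was lower, 0 of them membrane proteins, and Ctsd, Lamp2, Fuca1 and Ppt1 did not pass (adjusted p 0.0585, 0.102, 0.103 and 0.0586). V-ATPase subunits then counted 0 higher and 4 lower, other hydrolases 1 lower, MiT/TFE and mTORC1 genes 0 higher and 4 lower, and autophagy genes 0 higher and 5 lower. The block leaves fewer degrees of freedom.

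Median centring gave 0 higher in the V-ATPase, MiT/TFE and mTORC1, and autophagy lists, and ended Fuca1 (adjusted p = 0.153) and Ppt1 (adjusted p = 0.0525). Quantile normalization gave 1 membrane protein higher, Laptm4a. The filter at the median level gave 5 of the 43 genes lower (1 protease, 1 glycosidase or sulfatase, 2 membrane proteins), 2 membrane proteins higher, and V-ATPase 2, sorting 1 and MiT/TFE 2 higher with 8 sorting genes lower, and the trend gave 7 lower (1 protease, 2 glycosidases or sulfatases, 3 membrane proteins), 2 membrane proteins higher, and V-ATPase 2, sorting 2 and MiT/TFE 2 higher with 9 sorting genes lower. The equal-variance t-test gave 2 membrane proteins and 2 V-ATPase subunits higher and 0 autophagy genes higher. The mean of a gene's probe sets gave 2 glycosidases and sulfatases higher and 1 lower, 2 membrane proteins higher and 0 lower, and V-ATPase 2, sorting 1 and MiT/TFE 2 higher. Except for poly-A scaling, the cause was not tested.

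Leaving out 1 array at a time gave 10 to 14 of the 43 genes higher and 1 to 2 lower, lipid handling 1 to 3 higher, membrane proteins 0 to 1 lower, V-ATPase 0 to 1 higher and 4 to 9 lower, other hydrolases 0 to 2 lower, sorting 0 to 1 higher and 3 to 5 lower, MiT/TFE and mTORC1 0 to 1 higher and 4 to 7 lower, and autophagy 0 to 1 higher and 5 to 7 lower. Other hydrolases lower were 0 without CD73- replicate 2. The number of arrays limits which of the small differences pass.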
